A study of Mus musculus with 6 samples.

Results

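The genes described here are those of the proteins of the cytosolic ribosome. They were chosen by symbol, as the rows named Rpl or Rps followed by a number and its suffix, together with Rplp0, Rplp1, Rplp2 and Rpsa; rows of pseudogenes with -ps in the symbol and the S6 kinases were not taken. The rule found 86 of the 25330 rows, 51 for the large and 35 for the small subunit, and used no measured value. RNA-seq had been done on AML12, an immortalised line of mouse hepatocytes labelled as wild type, in 3 Control and 3 hypoxia-reoxygenation (H/R) libraries. All cells were grown in DMEM/F12 with 10% fetal bovine serum, an insulin, transferrin and selenium supplement and 40 ng/ml dexamethasone. Control cells stayed at 21% O2, whereas H/R cells were moved into medium without serum and glucose, kept at 1% O2 for 6 h and returned to normoxia for 2 h. Oxygen, serum and glucose therefore changed together between the groups, and their parts cannot be told apart. The methods of the study do not say whether the supplement and dexamethasone were kept in the medium of the H/R cells. The labels do not say whether the replicates were separate cultures, so the p-values measure the spread between these libraries, which may be technical.

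The cytosolic ribosome is built from ribosomal RNA and a fixed set of proteins, most of them present as a single copy, so that the mRNAs of these proteins are among the most abundant of a growing cell. Most of these mRNAs begin with a cytosine followed by an unbroken stretch of C and T, the terminal oligopyrimidine (TOP) motif, through which mTOR signalling and the binding protein LARP1 control their translation and stability. Free ribosomal proteins are also signals: RPL5 and RPL11, bound to 5S rRNA, inhibit MDM2 and thereby stabilise p53.

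Sequences around the annotated transcription start of RefSeq (GRCm38.p6) were available for 62 of the 86 genes. They are shown for 3 genes with the C and T stretch at the start (Rps6, Rplp2 and Rps27), for Rpl38, which has the stretch but was not called, for 2 genes with a large increase (Rpl10a and Rpl4), and for 3 paralogue copies that were not called higher (Rpl7l1, Rpl36al and Rps27l). Each line gives 10 bases before and 20 bases from the start onwards, 5′ to 3′ on the gene's strand. The capitals mark the longest unbroken run of C and T within the printed bases.
Rps6, chr4:86857348-86857377, minus strand: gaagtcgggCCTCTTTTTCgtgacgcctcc
Rplp2, chr7:141447641-141447670, plus strand: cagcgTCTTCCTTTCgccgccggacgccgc
Rps27, chr3:90213629-90213658, minus strand: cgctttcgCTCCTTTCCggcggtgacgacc
Rpl38, chr11:114668570-114668599, plus strand: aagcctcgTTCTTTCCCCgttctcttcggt
Rpl10a, chr17:28328461-28328490, plus strand: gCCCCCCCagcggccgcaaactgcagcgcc
Rpl4, chr9:64173377-64173406, plus strand: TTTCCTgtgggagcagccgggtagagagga
Rpl7l1, chr17:46782637-46782666, minus strand: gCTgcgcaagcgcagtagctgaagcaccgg
Rpl36al, chr12:69184048-69184077, minus strand: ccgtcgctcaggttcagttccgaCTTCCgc
Rps27l, chr9:66946076-66946105, plus strand: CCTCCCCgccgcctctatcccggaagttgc
The run crossed the start in Rps6, Rplp2, Rps27 and Rpl38, lay just before it in Rpl10a, Rpl4 and Rps27l, and was no longer than 2 bases in Rpl7l1. Between 20 bases before and 30 bases after the start, the longest run was 14 bases in Rpl4 and 9 in Rps27l. Both are therefore counted below among the genes with a run of at least 8 C or T. The annotated start can lie several bases from the start used in these cells.

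In total, 85 of the 86 genes had enough counts to be tested. Rpl3l, a copy of Rpl3 that is known from striated muscle, had 3 counts or fewer in every library, a level that was not distinguishable from 0 at this depth. Total counts per library were 20438746 to 21854790. Control replicate 1 stood apart from the other libraries: it held 131335 counts of the ribosomal RNA row Rn18s-rs5 against 28347 to 43775 elsewhere, and 61 counts of the fibrinogen gene Fga against 0 in the 5 other libraries, so results are also given without it. Of 20 hepatocyte markers, 12 had at least 10 counts in every Control library and 11 in every H/R library; the transcription factor Hnf4a had 2035 to 3209 counts, whereas Cps1, Tat and Cyp2e1 were at 2 counts or fewer in the libraries other than Control replicate 1. The summed level of this list was 4264 to 4614 CPM (counts scaled to a common library total) in Control and 6213 to 6246 in H/R, mostly from Krt8 and Krt18, while Alb had 132 to 542 counts in Control and 31 to 43 in H/R. That of 15 mesenchymal, endothelial and blood markers was 1.97 to 2.71 CPM in Control and 6.26 to 8.09 in H/R, with Pecam1, Adgre1 and Clec4f at 1 count or 0 throughout; Cd68, a lysosomal macrophage marker, had 16, 22 and 22 counts in Control and 123, 113 and 137 in H/R. That of the 6 biliary and progenitor markers with a row was 1562 to 1754 CPM in Control and 2618 to 2714 in H/R. The part of these differences in the results below was not tested.

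The ribosomal protein genes rose together and by a small amount. Of the 85 genes tested, 71 were higher after H/R at an adjusted p under 0.05 (edgeR quasi-likelihood test, Benjamini-Hochberg over 14020 genes), only Rpl7l1 was lower, and 13 were not called. The same test called 31% of all genes higher and 31.8% lower. The ribosomal protein mRNAs are abundant, and of the 3903 genes with a mean normalized count of at least 1000, 46.6% were called higher and 31.6% lower. The median log2 fold change of the 85 genes was 0.32, with lower and upper quartiles of 0.24 and 0.39. The median of all genes tested was -0.01, and that of the genes with a mean count of at least 1000 was 0.08. None of the 85 genes passed the 2-fold threshold of the study, which 4.25% of all genes passed upwards and 4.27% downwards (3.56% and 1.28% of the genes with a mean count of at least 1000). In bulk RNA, a change in the RNA of each cell and a change in which cells were harvested cannot be told apart.

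Both subunits showed the same picture. In the large subunit 42 of 50 genes were called higher and 1 lower, with a median log2 fold change of 0.31, and in the small subunit 29 of 35 were called higher and the other 6 were not called by the edgeR test, with a median of 0.32. In 69 of the 85 genes all H/R values exceeded all Control values, a pattern that 32.5% of all genes tested showed. The reverse was seen for 1 gene and for 33.5% of all genes. Of the 3903 genes with a mean count of at least 1000, 1877 showed the first pattern and 1265 the reverse. Relative to the mean of the Control libraries, the median gene stood at 0.002, -0.04 and 0.04 on the log2 scale in Control replicates 1, 2 and 3, and at 0.34, 0.29 and 0.32 in H/R replicates 1, 2 and 3. Without Control replicate 1 the counts were again 71 higher and 1 lower and the median was 0.32. The size of the increase depended on the scaling of the libraries: with library totals alone the median of the 85 genes was 0.22 and that of all genes -0.12, so that the genes stood 0.34 above the median of all genes under either scaling. Of the 71 genes, 62 were called higher with library totals and 65 with upper quartile scaling, and Rpl30 alone changed sign, to -0.003 with library totals.

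**Figure D1:**
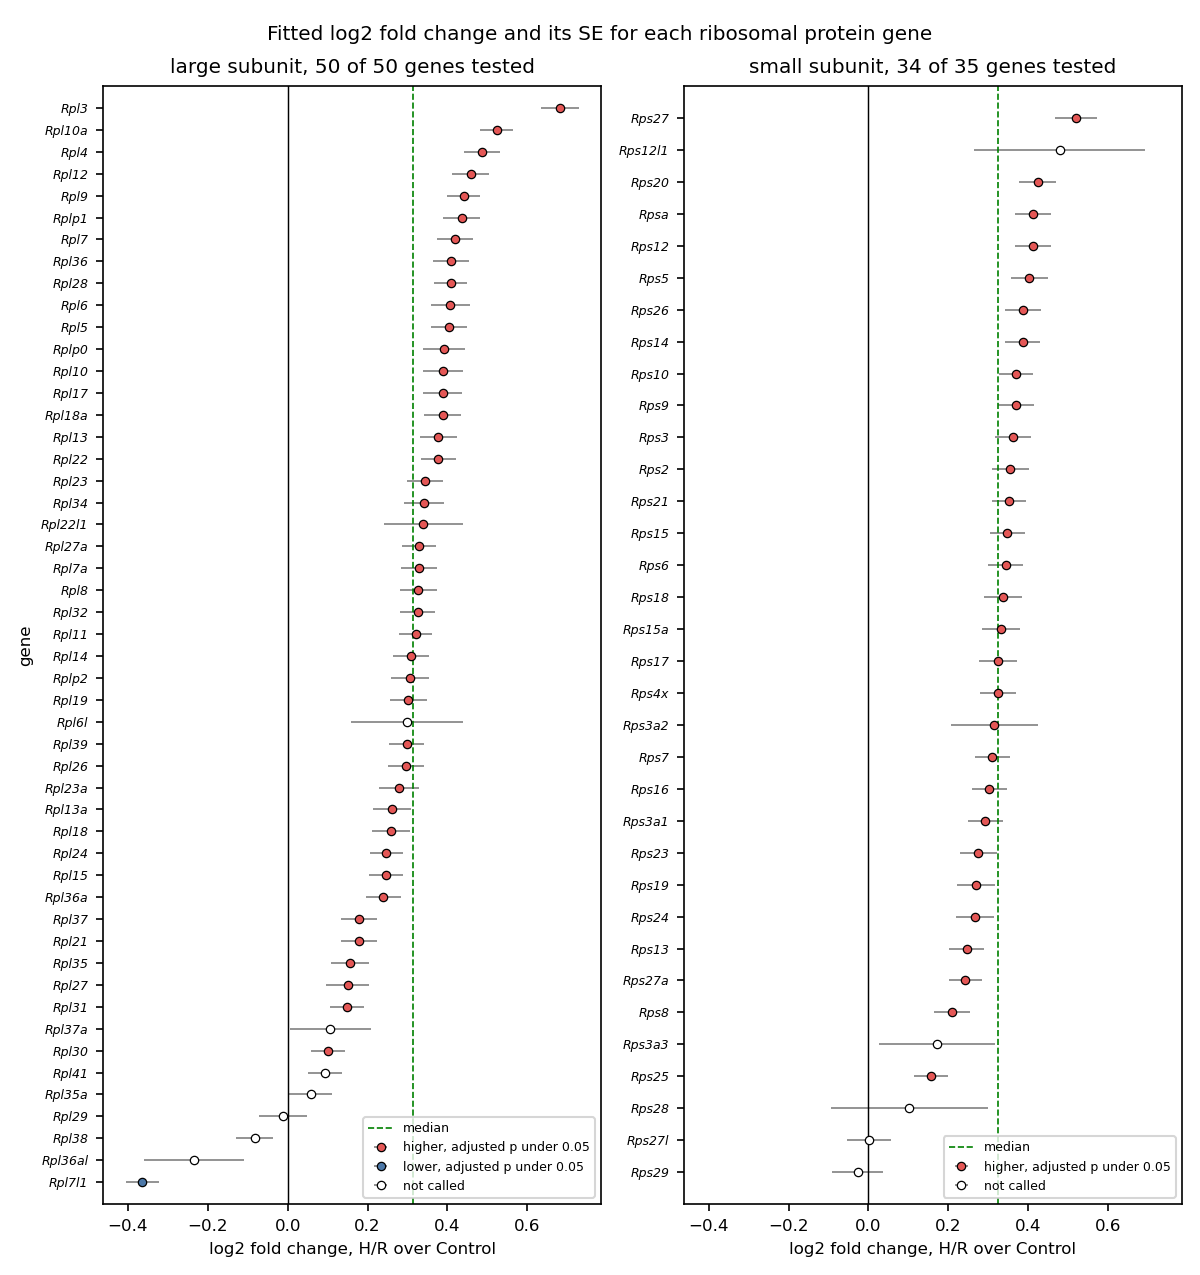
Fitted log2 fold change of H/R over Control (horizontal axis) for the 50 large subunit genes (left) and 34 of the 35 small subunit genes (right) tested, with 1 SE as the bar; filled points passed an adjusted p of 0.05, open points did not, and the dashed line is the median of the subunit. Most genes lie between 0.2 and 0.5 (63 of 85), Rpl3 lies furthest to the right and Rpl7l1 furthest to the left.

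The share of the library that these genes took up was higher after H/R. Their summed counts were 4.79%, 4.71% and 4.98% of all counts in Control replicates 1 to 3 and 5.73%, 5.55% and 5.69% in H/R replicates 1 to 3. All 3 H/R libraries thus lay above all 3 Control libraries, and the means were 4.83% ± 0.136 and 5.66% ± 0.0928 (SD, n = 3 each), a ratio of 1.17. The large subunit genes held 3.50% ± 0.0906 in Control and 4.12% ± 0.0689 in H/R, and the small subunit genes 1.32% ± 0.0458 and 1.53% ± 0.0318. The ratio of large to small subunit counts was 2.65 ± 0.0234 in Control and 2.69 ± 0.0428 in H/R, and the groups overlapped. The 5 genes with the most counts (Rpl6, Rpl23a, Rpl5, Rpl19 and Rpl7) alone held 1.31% ± 0.00940 in Control and 1.57% ± 0.0351 in H/R. Taken of the library total scaled by TMM, the ratio of the shares was 1.26, and without Control replicate 1 it was 1.17.

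**Figure D2:**
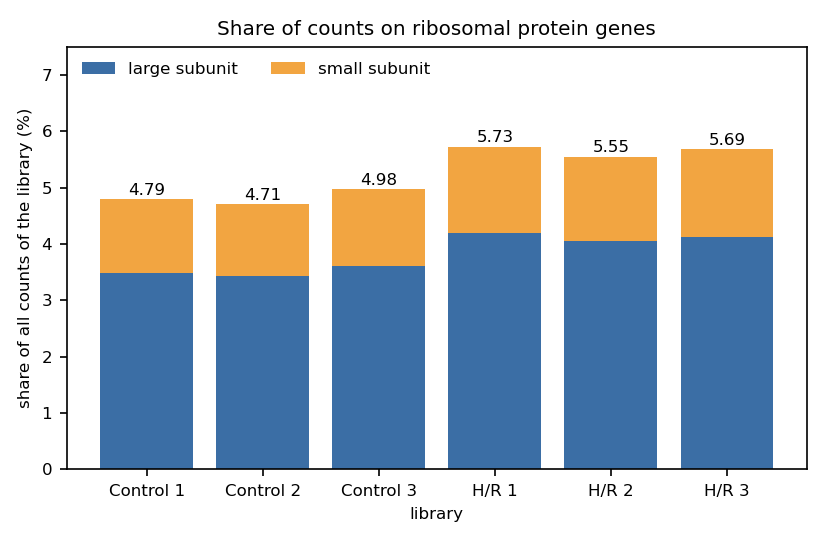
Share of all counts of each library (vertical axis, percent) on the large subunit genes (lower part of the bar) and the small subunit genes (upper part), for the 3 Control and 3 H/R libraries, with the sum printed above each bar. The 3 H/R bars reach 5.55% to 5.73% and the 3 Control bars 4.71% to 4.98%.

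The largest increase was that of Rpl3 (chr15:80077794-80091868), whose protein sits next to the peptidyl transferase centre of the large subunit. Its normalized count was 24056, 22218 and 24031 in Control replicates 1 to 3 and 38690, 37446 and 36609 in H/R replicates 1 to 3. The lowest H/R library was well above the highest Control library. The log2 fold change was 0.68 (SE 0.0466, edgeR adjusted p = 8.00e-15) and lay between 0.58 and 0.71 under the alternatives.

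Rpl10a (chr17:28328471-28331032) and Rpl12 (chr2:32961559-32965345), whose proteins form or anchor the mobile stalks of the large subunit, were called higher as well. The normalized count of Rpl10a was 3875, 3908 and 4126 in Control and 5832, 5606 and 5678 in H/R (log2 fold change 0.52, SE 0.0414, edgeR adjusted p = 3.49e-13). That of Rpl12 was 17471, 16243 and 17481 in Control and 23721, 23610 and 22999 in H/R (0.46, SE 0.0457, edgeR adjusted p = 1.02e-10). In both genes the groups did not overlap.

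Rpl4 (chr9:64173375-64178666), whose protein reaches into the exit tunnel of the nascent chain, had 29281, 28287 and 30786 normalized counts in Control and 41688, 40940 and 41157 in H/R (log2 fold change 0.49, SE 0.0457, edgeR adjusted p = 2.47e-11). In the small subunit the increase was largest for Rps27 (chr3:90212522-90213651), a zinc finger protein, with 1436, 1424 and 1556 in Control and 2040, 1995 and 2291 in H/R (0.52, SE 0.0524, edgeR adjusted p = 3.21e-10). The H/R values of both genes lay above all Control values, and these 5 genes kept their call under every alternative in which they were tested.

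The 8 genes chosen for known roles outside or at the edge of the ribosome were all called higher. Rpl5 (chr5:107900502-107909005) and Rpl11 (chr4:136028265-136053428), the partners of 5S rRNA, had log2 fold changes of 0.40 (SE 0.0446) and 0.32 (SE 0.0406). Rpl5 had 56925, 55444 and 55425 normalized counts in Control and 75672, 73983 and 72264 in H/R, and Rpl11 had 6219, 6202 and 6084 against 7657, 7705 and 7744. The groups did not overlap in either gene. The 3 proteins of the stalk that recruits the elongation factors rose as well: the log2 fold change was 0.39 for Rplp0, 0.44 for Rplp1 and 0.31 for Rplp2. Rps6 (chr4:86854660-86857412), the substrate of S6 kinase, had 20792, 21294 and 21451 normalized counts in Control and 27122, 26529 and 26966 in H/R (0.34, SE 0.0442). Rpsa, also known as the laminin receptor precursor, had a log2 fold change of 0.41 (SE 0.0450), and Rps19, which is often mutated in Diamond-Blackfan anaemia, of 0.27 (SE 0.0484). For each of these 8 genes every H/R library was above every Control library, and the edgeR adjusted p was between 7.57e-10 (Rplp1) and 2.28e-05 (Rps19). Exons of another row cover 26.7% of the exon length of Rpl5.

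Rpl7l1 (chr17:46773907-46782656) was the one gene that fell. It is a paralogue of Rpl7, and its yeast relative takes part in making the large subunit. Its normalized count was 6702, 6873 and 6560 in Control and 5300, 5284 and 5062 in H/R, so every H/R library lay below every Control library. The log2 fold change was -0.36 (SE 0.0410, edgeR adjusted p = 1.63e-09), and it was between -0.47 and -0.34 under the alternatives. Rpl7 itself (chr1:16101295-16104662) had 40148, 38350 and 37995 in Control and 53190, 52162 and 50288 in H/R, a log2 fold change of 0.42 (SE 0.0455).

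Pairs of a paralogue copy and its main gene were compared within each library, where the scaling cancels. Of 10 listed pairs, 6 had at least 10 counts in both genes in every library; with 3 libraries against 3, the two-sided exact permutation test cannot give a p below 0.1, which becomes 0.2 after adjustment over the 6 pairs. The log2 ratio of Rpl7l1 to Rpl7 was -2.53 ± 0.0513 in Control and -3.31 ± 0.0119 in H/R (SD, n = 3), a difference of -0.78 (exact p = 0.1). For Rps27l to Rps27 it was -0.31 ± 0.165 and -0.82 ± 0.130, a difference of -0.51 (exact p = 0.1), and for Rpl36al to Rpl36a -1.11 ± 0.128 and -1.58 ± 0.103, a difference of -0.47 (exact p = 0.1). In these 3 pairs all H/R libraries were below all Control libraries, the lowest p that the design allows. The ratios of Rpl22l1 to Rpl22, Rps3a2 to Rps3a1 and Rps3a3 to Rps3a1 differed by -0.03, 0.02 and -0.11 with overlapping libraries (exact p = 0.8, 0.8 and 0.7).

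**Figure D3:**
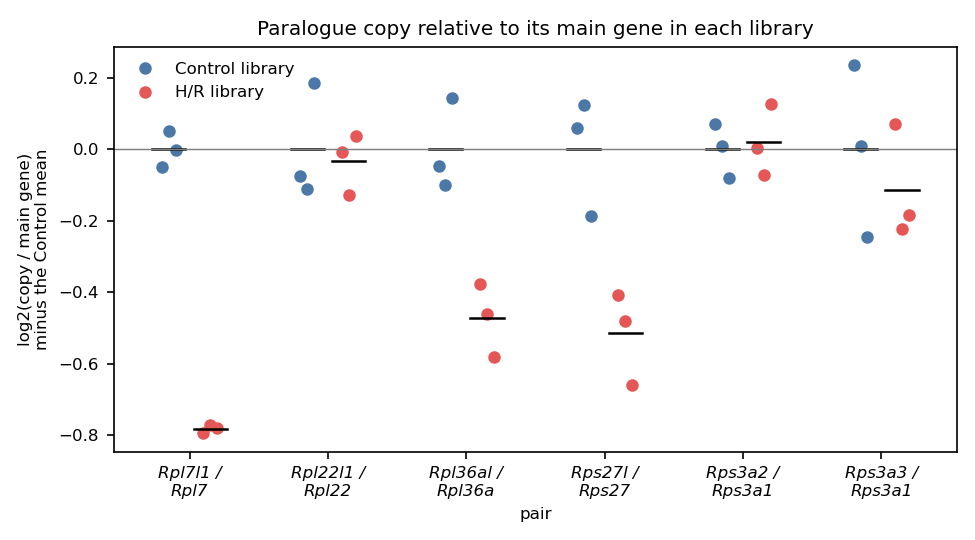
Log2 ratio of the paralogue copy to its main gene in each library, minus the mean of the Control libraries (vertical axis), for the 6 pairs compared; blue points are Control, red points H/R libraries and bars the group means. The H/R points lie 0.78, 0.47 and 0.51 below Control on average for Rpl7l1, Rpl36al and Rps27l and among the Control points for the other three.

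The copies differed from each other in their own values. Rps27l (chr9:66946086-66949516), a target of p53 in other cells, had 1209, 1254 and 1104 normalized counts in Control and 1243, 1155 and 1172 in H/R, a log2 fold change of 0.001 (SE 0.0543, edgeR adjusted p = 0.988) with overlapping groups. Rpl36al (chr12:69182731-69184083) had 3883, 3788 and 4638 in Control and 3874, 3499 and 3093 in H/R (-0.23, SE 0.125, edgeR adjusted p = 0.172), and Control replicate 3 was the highest library; without a filter on low counts it was called lower (-0.24, adjusted p = 0.0342). Its main gene Rpl36a had a log2 fold change of 0.24 (SE 0.0438). Rpl22l1 had 242, 237 and 309 normalized counts in Control and 352, 294 and 351 in H/R, a log2 fold change of 0.34 (SE 0.0996, edgeR adjusted p = 0.00397), beside 0.38 (SE 0.0441) for Rpl22; with library totals alone the adjusted p of Rpl22l1 was 0.0545.

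Among the genes that were called higher, Rpl30, Rpl31, Rpl27 and Rpl35 had the smallest changes. Rpl30 (chr15:34440505-34443640) had 4582, 4774 and 4514 normalized counts in Control and 5014, 4749 and 5120 in H/R, and H/R replicate 2 lay within the Control range. Its log2 fold change of 0.10 (SE 0.0421, edgeR adjusted p = 0.0352) was not called without Control replicate 1, Control replicate 3, H/R replicate 1 or H/R replicate 3 (adjusted p = 0.105, 0.1002, 0.107 and 0.136), nor with no filter on low counts (0.0588) or with at least 10 counts in every library (0.0547). Rpl27 (0.15, SE 0.0540, edgeR adjusted p = 0.0192) was likewise not called without Control replicate 2, Control replicate 3 or H/R replicate 3 (adjusted p = 0.0823, 0.0632 and 0.163). The log2 fold change was 0.15 (SE 0.0426) for Rpl31 and 0.16 (SE 0.0485) for Rpl35; the libraries did not overlap in either, and exons of other rows cover 25.3% and 66.2% of their exon length. None of these 4 genes was called with library totals (adjusted p = 0.960 for Rpl30, 0.356 for Rpl31, 0.524 for Rpl27 and 0.298 for Rpl35) or with upper quartile scaling (0.534, 0.112, 0.190 and 0.123). The proteins of Rpl31 and Rpl35 lie around the exit of the tunnel, as do those of Rpl23a and Rpl17, whose log2 fold changes were 0.28 (SE 0.0493) and 0.39 (SE 0.0491).

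Of the 13 genes that were not called, 8 were neither a listed copy nor annotated as a pseudogene. Rpl38 (chr11:114668524-114672331), which is known for the translation of Hox mRNAs, had 2908, 3273 and 2939 normalized counts in Control and 2931, 2748 and 2930 in H/R (log2 fold change -0.08, SE 0.0469, edgeR adjusted p = 0.125). The groups overlapped, but Rpl38 was called lower with library totals alone (-0.19, adjusted p = 0.000782) and with upper quartile scaling (-0.15, adjusted p = 0.00524). Rps29, another small zinc finger protein, had 621, 603 and 588 in Control and 576, 568 and 633 in H/R (-0.03, SE 0.0639, edgeR adjusted p = 0.738). The groups overlapped in Rps29 as well. Rpl41, which encodes the shortest protein of the ribosome, had 7850, 8605 and 8434 in Control and 8901, 8895 and 8755 in H/R, so its libraries did not overlap although the adjusted p was 0.0615 (0.09, SE 0.0435); without Control replicate 2 or Control replicate 3 it was 0.0191 and 0.0469, and with DESeq2, the replicate block and the length offset 0.0306, 0.0431 and 0.0160.

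In Rps28 and Rpl37a a single Control library decided the call. Rps28 had 1186, 1256 and 1787 normalized counts in Control and 1579, 1375 and 1586 in H/R (log2 fold change 0.10, SE 0.196, edgeR adjusted p = 0.691). Rpl37a had 1586, 1430 and 1909 in Control and 1765, 1802 and 1740 in H/R (0.11, SE 0.1003, edgeR adjusted p = 0.394). Control replicate 3 was the highest of the 6 libraries in both, and without it the log2 fold changes were 0.31 (adjusted p = 2.78e-05) and 0.23 (adjusted p = 0.000304). Rpl29 and Rpl35a had most of their matched counts on pseudogene rows and are described with these.

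Ribosomal protein mRNAs have been copied back into the mouse genome many times, and reads of such copies cannot always be told apart from those of the gene. In these tables, 79 of the 86 genes had at least 1 pseudogene row whose transcript matched theirs at 95% identity or more over at least 150 bases, 471 rows in all. The share of the matched counts that fell on pseudogene rows had a median of 2.14% over the 77 genes that are neither listed copies nor annotated pseudogenes. It was under 5% for 59 of them, over 10% for 11 and over 50% for 4: Rps2 (92.9%), Rpl26 (88.1%), Rpl29 (84.9%) and Rpl35a (53.8%). For Rps2 the pseudogene row Rps2-ps13 (chrX:52898588-52899469, 99.2% identity) alone had 20907 to 29725 counts per library, and for Rpl26 the row Gm15772 (chr5:3236431-3236868, 99.5% identity) had 24214 to 30625.

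Of the 18 matched pseudogene rows with at least 5000 counts in all, 16 were called higher and the other 2 were not called by the edgeR test. Of all genes tested 31% were called higher, and of those with a mean normalized count of at least 1000 46.6%. Calls were not counted for the matched rows with fewer counts. Rpl3-ps1 (chrX:13202571-13203780) and Rpl3-ps2 (chrX:74170653-74171866) had log2 fold changes of 0.68 (SE 0.0431) and 0.72 (SE 0.0509), beside 0.68 for Rpl3. When the pseudogene rows were added to their genes, an alternative chosen after the data were seen, 74 of the 85 genes were called higher and Rpl7l1 alone was called lower. The log2 fold change moved by more than 0.05 in 3 genes. Rpl29 went from -0.01 (SE 0.0601, edgeR adjusted p = 0.882) to 0.22 (SE 0.0440, adjusted p = 5.12e-05), Rpl35a from 0.06 (SE 0.0543, adjusted p = 0.364) to 0.16 (SE 0.0439, adjusted p = 0.00251), and Rps2 from 0.35 (SE 0.0459) to 0.48 (SE 0.0462). On its own row Rpl29 had 751, 873 and 821 normalized counts in Control and 821, 824 and 782 in H/R, and Rpl35a had 943, 972 and 909 against 960, 967 and 1011; the groups overlapped in both.

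**Figure D4:**
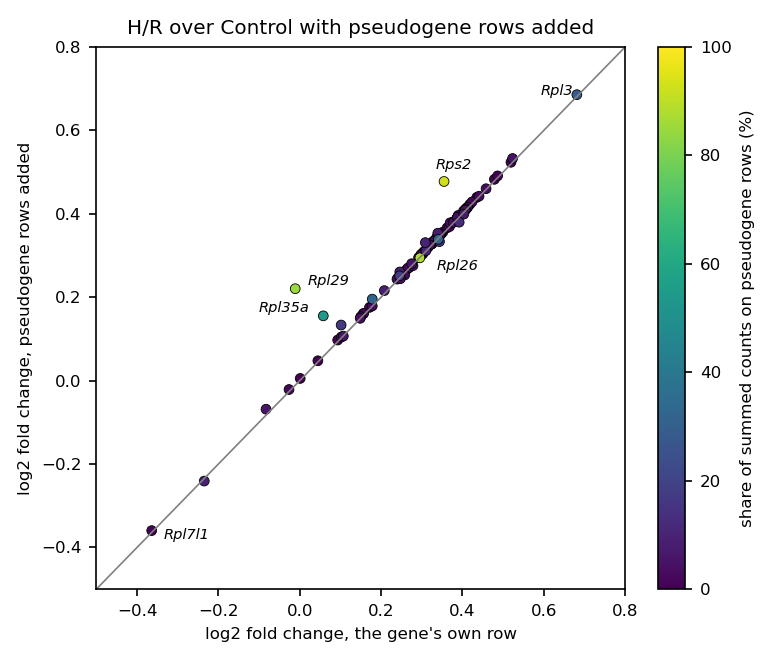
Log2 fold change of each of the 85 genes from its own row (horizontal axis) and after the matching pseudogene rows were added to it (vertical axis), coloured by the percentage of the summed counts that came from pseudogene rows; the line marks equal values. Rpl29, Rpl35a and Rps2 lie above the line, and Rpl26 lies on it although 88.1% of its summed counts came from pseudogene rows.

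The choice by symbol also took in 4 genes that the GENCODE annotation types as processed pseudogenes. Rps3a2, Rps3a3 and Rps12l1 had 28 to 201 normalized counts and Rpl6l 471 to 797. Rps3a2 was called higher (log2 fold change 0.32, SE 0.109, edgeR adjusted p = 0.0127), but not without H/R replicate 3 (adjusted p = 0.0710), with DESeq2 (0.0709), with library totals (0.0967) or with upper quartile scaling (0.0501). Rps12l1 was not called (0.48, SE 0.215, edgeR adjusted p = 0.0517), but was without Control replicate 1 (0.73, adjusted p = 0.00911) and with the replicate block, the length offset and added pseudogene rows (0.0452, 0.0434 and 0.0489); its whole length lies inside exons of another row. Rpl6l (0.30, SE 0.139) and Rps3a3 (0.17, SE 0.146) were not called. Which of these counts are reads of the parent mRNA was not tested.

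Levels differed far more between the genes than between the conditions. By the deposited RPKM (reads scaled by the exon length of the gene and by the total of the library), Rpl23a (chr11:78180932-78183584) was highest, at 3637 ± 191 in Control and 4101 ± 243 in H/R (SD, n = 3 each). Rpl19 followed at 2177 ± 107 and 2495 ± 32.0 and Rpl17 at 1163 ± 99.4 and 1414 ± 40.5. The Control libraries of these 3 genes did not overlap with each other. Those of Rpl17 did overlap with the gene at rank 4, which had 1102 ± 19.8 RPKM in Control. The median of the 77 genes was 261 RPKM in Control, against 5.05 for all genes tested. The lowest genes tested were Rps12l1 (4.67 ± 1.32), Rps3a3 (5.97 ± 0.926) and Rpl22l1 (6.48 ± 1.09 RPKM in Control), whose order is within their spread. The order depended on the length that was used. The exon length of the tables includes long rare isoforms, such as 6270 bases for Rps15a, whose coding sequence has 390; per kilobase of coding sequence Rpl23a was again first with 6582 CPM, but Rpl41 came next with 5419 and Rpl17 was 16th. Exons of Tlcd1, on the other strand, and of a small nucleolar RNA cover 62.3% of the exon length of Rpl23a.

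Longer coding sequences went with slightly larger increases. Among the 77 genes, the median log2 fold change was 0.27 for the 25 with under 400 coding bases, of which 19 were called higher, 0.32 for the 38 with 400 to under 700 bases (36 higher) and 0.38 for the 14 with 700 or more (14 higher). Across these 77 genes, which share the same 6 libraries, Spearman's rho between coding length and log2 fold change was 0.40 and Pearson's r 0.52; this is a description over genes, which are not independent replicates. With the exon length of the tables rho was 0.19, and with the level in Control 0.16. With an offset on exon length in the edgeR fit, 74 genes were called higher and 1 lower. The 37 genes whose exons overlap another row (for 16 of them a small nucleolar RNA or microRNA row) had a median of 0.33, with 34 called higher; the 48 without overlap had a median of 0.32, with 37 called higher.

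The sequence around the start was compared with all genes of the tables. A run of at least 8 C or T between 20 bases before and 30 bases after the start was found on the gene's strand in 50% of the 62 genes with a window and in 18.1% of 13185 genes. In the window from 250 bases before to 50 after the start, on either strand, the ETS motif CCGGAAG was found in 38.7% against 15.2%, the YY1 motif GCCATCTT in 8.06% against 4%, TATAAA in 9.68% against 9%, CACGTG in 8.06% against 9.06% and ACGTG, the core of the hypoxia response element and also contained in CACGTG, in 29% against 23.4%. Among the 61 of these genes that were tested, the 31 with the C and T run had a median log2 fold change of 0.33 (29 called higher) and the 30 without it of 0.30 (24 higher and 1 lower). The median was 0.32 both for the 18 with ACGTG and for the 43 without it. A match is a description of the letters and not evidence of a bound factor.

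Other genes of translation were read from lists of known members. Ribosomal proteins with other symbols rose by similar amounts: Fau, which encodes RPS30, had a log2 fold change of 0.41 (SE 0.0489) and Rack1 of 0.32 (SE 0.0427). Of 21 other mRNAs with a TOP start, 20 were called higher and 1 lower, with a median of 0.39. They include Fau, Rack1 and some of the initiation and quality factors below, so the lists are not independent. The noncoding Gas5 had the largest change there, with 3463, 4002 and 3682 normalized counts in Control and 6874, 6387 and 6731 in H/R (0.84), and Eef2, the translocase, rose from 43605 ± 2718 to 66551 ± 904 (0.61). Of 7 genes listed as elongation factors, 5 were called higher and the other 2 were not called (median 0.35), and Eif5a stood at -0.0007. The 5 called genes are also among the 21 TOP mRNAs.

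The initiation factors were mixed, with 21 of 37 called higher and 7 lower (median 0.18). Eif1 rose by 0.86 and the eIF3 subunits Eif3h and Eif3c by 0.56 and 0.55, whereas the scaffold Eif4g1 fell from 25570 ± 355 to 15582 ± 240 normalized counts (-0.71). Among 12 listed genes linked to ribosomal proteins or their synthesis, which include Mdm2 and Trp53, 7 were called higher and 3 lower. Myc, which drives ribosome production, rose from 510 ± 41.7 to 1855 ± 134 (1.86), Mdm2 from 1906 ± 108 to 5630 ± 260 (1.56) and the eEF2 kinase Eef2k by 0.78. Eif4ebp2 had a log2 fold change of -0.64, while the more abundant Eif4ebp1 rose by 0.56. Mtor (-0.25) and Trp53 (-0.28) were also called lower. Of 12 nascent chain and ribosome quality factors tested, 5 were called higher and 5 lower, led by Habp4 (-0.73) and the collision sensor Zfp598 (0.57). For comparison, 31% of all genes tested were called higher and 31.8% lower. Among the genes with a mean normalized count of at least 1000 it was 46.6% and 31.6%. All values are edgeR log2 fold changes at an adjusted p under 0.05, and no list was tested as a whole.

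The genes of the mitochondrial ribosomal proteins, which translate the few mRNAs of the mitochondrial genome, were more often called lower than higher. Of 80 rows tested, 11 were called higher, 41 were called lower and 28 were not called. The same test called 31% of all genes higher and 31.8% lower. The median log2 fold change of the 80 was -0.15, with lower and upper quartiles of -0.41 and 0.08. The 80 include 2 pseudogene rows, Mrpl48-ps, which was not called, and Mrpl23-ps1, which was called higher (0.39). Their share of all counts was 0.397% ± 0.00385 in Control and 0.322% ± 0.00143 in H/R (SD, n = 3), without overlap. Mrpl41 had 1433, 1359 and 1390 normalized counts in Control and 523, 552 and 535 in H/R (-1.38, SE 0.0558), and it was the only one of the 80 past the 2-fold threshold. Mrpl18, Mrps27 and Mrpl42 had log2 fold changes of -0.88, -0.69 and -0.69; exons of another row cover 22.6% of Mrps27.

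**Figure D5:**
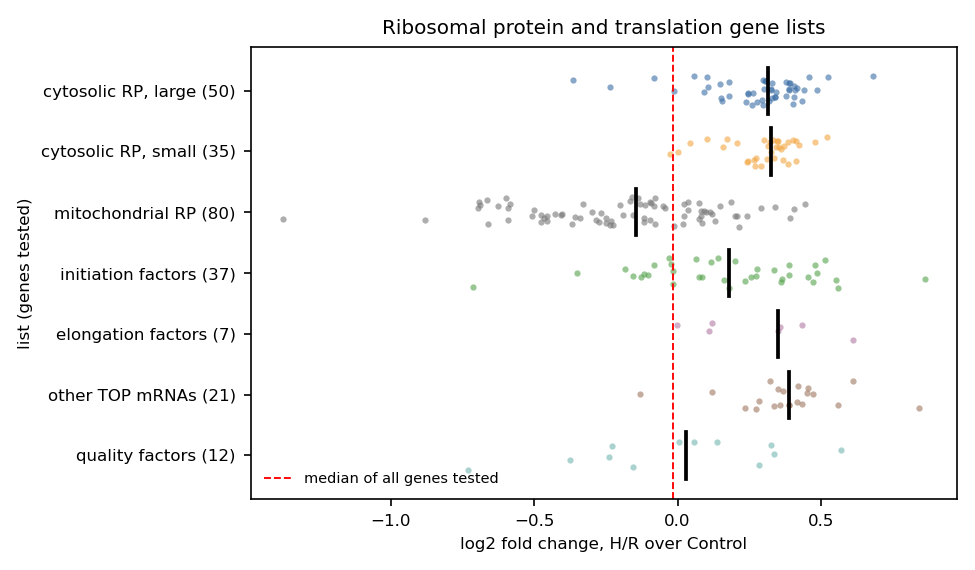
Log2 fold change of H/R over Control (horizontal axis) for each gene tested of the cytosolic ribosomal protein (RP) genes by subunit and of 5 other lists, with the median of each list as a black bar and that of all genes tested as a dashed line; some genes stand in more than one list. The cytosolic genes centre on 0.31 and 0.32, the elongation factors and other TOP mRNAs on 0.35 and 0.39, and the mitochondrial ribosomal proteins on -0.15.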

How the data were processed

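The 6 tables hold whole-number counts per gene, deposited by the authors without normalization, and RPKM values that the authors derived from the count, the exon length and the library total. The submitters' processing notes name Trimmomatic 0.36, featureCounts of Subread 1.5.1, edgeR 3.12.1 and GRCm38; the annotation, the handling of reads with several matches and the strand setting of the counting are not given in the sources used here. Library totals ranged from 20438746 to 21854790 counts, and the number of libraries limits the precision.

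For the counts, edgeR 4.0.16 was run in R 4.3.3 with filterByExpr, TMM scaling, glmQLFit (robust) and glmQLFTest, two-sided, with Benjamini-Hochberg adjustment over 14020 genes; a gene was called at an adjusted p under 0.05. The SE printed with an edgeR log2 fold change is its absolute value divided by the square root of the quasi-likelihood F statistic. Normalized counts are scaled to the mean of the effective library sizes. The fit was tested on simulated data. Pair ratios used counts plus 0.5 and an exact two-sided permutation test. Transcripts of GENCODE M21 were compared with BLAST 2.17.0 (95% identity, 150 bases). Alternatives were DESeq2 1.42.0, other scalings and filters, the replicate block, a length offset, left-out rows and libraries, and added pseudogene rows.

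Named genes were the 5 members with the largest and the 5 with the smallest change among called members with a mean count of at least 100, the 3 highest and 3 lowest by RPKM, the paralogue pairs, 8 members with known roles, and at most 4 genes per other list. The members that were not called, pseudogene rows, marker genes, the 4 genes with over 50% on pseudogene rows and Rps15a were chosen after their values were seen. The same holds for Eif4ebp1, Mtor and Trp53, which were named in addition. The members and lists were chosen with earlier results of these data known. The values of 2 genes are not reported here. The authors' own comparisons were not used.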

Additional observations from a re-analysis of the deposited data

Results flagged for a closer look

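Counts on pseudogene rows that match a ribosomal protein mRNA were not part of the members chosen by symbol, yet they held 0.5422% of all counts on average in Control and 0.6507% in H/R, with 0.509% to 0.579% in the Control and 0.637% to 0.674% in the H/R libraries and no overlap. It was listed because it is a signal in rows outside the main comparison that was above its level in the control samples. Whether these reads come from the pseudogenes or from the parent mRNAs was not tested.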

How the results depend on the processing

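DESeq2, the filters on low counts, the length offset and leaving out ribosomal RNA and mitochondrial rows left 70 to 74 of the genes called higher, against 71. Leaving out 1 library at a time gave 68 to 73 called higher, 1 lower, medians of all members of 0.31 to 0.34 and a ratio of shares of 1.16 to 1.19. With upper quartile scaling the medians of all members, the large and the small subunit were 0.25, 0.24 and 0.25, and with library totals 0.22, 0.21 and 0.22; 2 genes were called lower under both and without a filter. With rows of overlapping exons left out, fewer genes were tested, and 37 members were called higher among 5366 genes called, 772 of them 2-fold. With the TMM effective library size the ratio of shares was 1.26. The replicate block gave 73 higher and 1 lower. Deviations of libraries with the same number correlated at -0.0808, -0.00281 and -0.00362, so no shared effect of the number was seen. The labels do not say whether libraries with the same number were handled together. Signs turned with library totals for Rpl30 (-0.00257), Rps27l (-0.103), Rpl35a (-0.0463), Rpl41 (-0.0119) and Rps28 (-0.00492), with upper quartile scaling for Rps27l (-0.0691) and Rpl35a (-0.0125), and for Rps27l (-0.00762) with 10 counts in every library. Rpl29 turned to 0.00323 with DESeq2, 0.0171 with the length offset and 0.22 with pseudogene rows added. Without 1 library, Rps27l (-0.0495 to 0.0399), Rpl29 (-0.0670 to 0.0398), Rps29 (-0.0746 to 0.00073) and Rps28 (-0.00885 to 0.310) also changed sign. Among the other values of named genes over all libraries, 13 lost their call and 10 gained one. The cause of these changes was not tested.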
